A study of Canis lupus familiaris with 16 samples.

Results

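The genes described here copy DNA and open S phase, the stage of the cell cycle in which the genome is replicated. They were followed in 4 canine hepatocellular carcinoma cell lines given sorafenib or toceranib, inhibitors of several protein kinases. The set was chosen by symbol. It lists 52 genes, of which 50 were matched in the count tables and 2 are not analysed here, against 39543 symbols in all. All 50 passed the filter on low counts, and 49 had 10 counts or more in every library. The primary cultured lines, established from liver tumours of dogs and named KU-cHCC-001 and KU-cHCC-002 together with KU-cHCC-004 plus KU-cHCC-005, were all grown in Advanced DMEM with fetal bovine serum, HEPES and N-acetyl-L-cysteine. Each line contributed 1 library for each of 4 treatments of 24 h, namely sorafenib at 30 µM, its vehicle DMSO, toceranib at 15 µM and its vehicle DPBS, which makes 16 libraries. A replicate is therefore a cell line, and no line was sequenced more than once under a treatment. Unless said otherwise, 4 values in a row are those of the lines in this order. Levels are in CPM, read counts per gene relative to the library size after TMM scaling.

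Replication starts in G1 with origin licensing. The origin recognition complex (ORC1 to ORC6) marks origins, and CDC6 and CDT1 load the MCM helicase there, with geminin (GMNN) blocking CDT1 outside G1. At S phase entry cyclin E and CDK2 act, E2F transcription factors raise many of these genes, and CDC45 and the GINS complex turn the loaded helicase into a moving fork. Polymerases, the PCNA clamp and its RFC loader then copy the strands, ribonucleotide reductase and thymidylate enzymes supply nucleotides, and histone chaperones pack the new DNA. These roles are stated as known from yeast and human cells. The liver is a tissue in which adult hepatocytes mostly rest outside the cycle, whereas a growing tumour line cycles continuously.

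Facts of the whole series that bear on these values are the following. Total counts ran from 12008366 to 21943572 per library. Of 8 hepatocyte markers, 4 reached 5 CPM in at least 1 DMSO library, among them HNF4A at 5.56 to 79.9 CPM and APOB at 0.419 to 50.3 CPM. The secreted products that define hepatocytes were at or near 0, with ALB at 0.0524 to 0.0603 CPM, TTR at 0 to 0.166 CPM, APOA1 at 0 to 0.0603 CPM and SERPINA1 at 0 CPM. The bile duct keratin KRT19 stood at 21.4, 5096, 4979.7 and 2638 CPM in the DMSO libraries. DMSO, sorafenib and toceranib libraries of a line matched each other best across genes. By the correlation of levels, 3 of the 4 DPBS libraries matched the DMSO library of another line better than that of their labelled line, and the 4 formed 2 close pairs, so they were kept out of the tests of each drug against DMSO. The toceranib library of KU-cHCC-005 held stromal transcripts, such as COL3A1, which stood at 0, 0, 6.54 and 51.7 CPM over the toceranib libraries and at 0, 72.5, 0 and 80.4 CPM over the DPBS libraries against 0 CPM in every DMSO library. Over the 7 stromal markers the summed level was 0.301 to 43.1 CPM with DMSO, 1.01 to 35.6 CPM with sorafenib, 0.834 to 348 CPM with toceranib and 0.355 to 426 CPM with DPBS. LUM and DCN were at 0 CPM in all DMSO and sorafenib libraries. The toceranib library of KU-cHCC-001 held CD74, which stood at 321, 3.04, 5.23 and 1.19 CPM over the toceranib libraries. With DMSO CD74 stood at 2.73, 3.92, 3.68 and 0.276 CPM. The other leukocyte markers did not follow CD74 in that library, with PTPRC, CD3E and LAPTM5 at 0 CPM and CD79A at 0.0844 CPM. CD14 stood at 12.3 CPM there, against 11.6 CPM in the DMSO library of that line. The part of the stromal transcripts and of CD74 in the toceranib results was not tested beyond the fit without the library of KU-cHCC-005.

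Sorafenib against DMSO of the same line asked which replication genes sorafenib changes. With sorafenib, 22 of 50 genes fell and 3 rose, while 25 did not pass the test (edgeR quasi-likelihood test with the cell line in the model, Benjamini-Hochberg adjusted p under 0.05 over 14938 genes). The genes that fell covered CDT1, geminin and 3 MCM subunits, both lagging strand enzymes, all 4 histone chaperones, ribonucleotide reductase, UNG, PCNA, cyclin E2 and the factors E2F1 and E2F2. The genes that rose were ORC2, ORC3 and ORC4. The share called was 50% of the set against 19.6% of all genes tested, where 10.1% were called lower and 9.59% higher. The median log2 fold change was -0.57 over the set and -0.02 over all genes tested, and 23 of 50 genes were lower in all 4 lines (46% against 24.5% of all genes tested), 3 higher in all 4 (6% against 26.3%). In bulk RNA a smaller share of cells in S phase and less RNA per cell cannot be told apart.

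The fall was uneven between lines. The median log2 ratio to DMSO over the 50 genes was -0.08, -0.86, -0.25 and -1.08 in the 4 lines. In KU-cHCC-005 27 genes were more than 1 log2 unit below DMSO and in KU-cHCC-002 22, against 7.10% and 8% of all genes tested. In KU-cHCC-004 there were 12 and in KU-cHCC-001 3, against 9.78% and 4.75%. KU-cHCC-001 thus changed least, with KU-cHCC-004 next, while KU-cHCC-005 changed most; this difference between lines was not tested, since a line has 1 library per treatment. The count of genes that fell was 26 without KU-cHCC-001 and 8 without KU-cHCC-002, 8 without KU-cHCC-004 and 8 without KU-cHCC-005, and the count that rose was 1 without KU-cHCC-004. With all 16 libraries in the fit 11 fell, and without the cell line in the model 3 fell and 2 rose. Calls over all genes shifted as well, from 1502 lower in the main fit to 1984, 472, 316 and 387 without each line in turn. They were 975 with all 16 libraries and 238 without the cell line in the model.

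**Figure D1:**
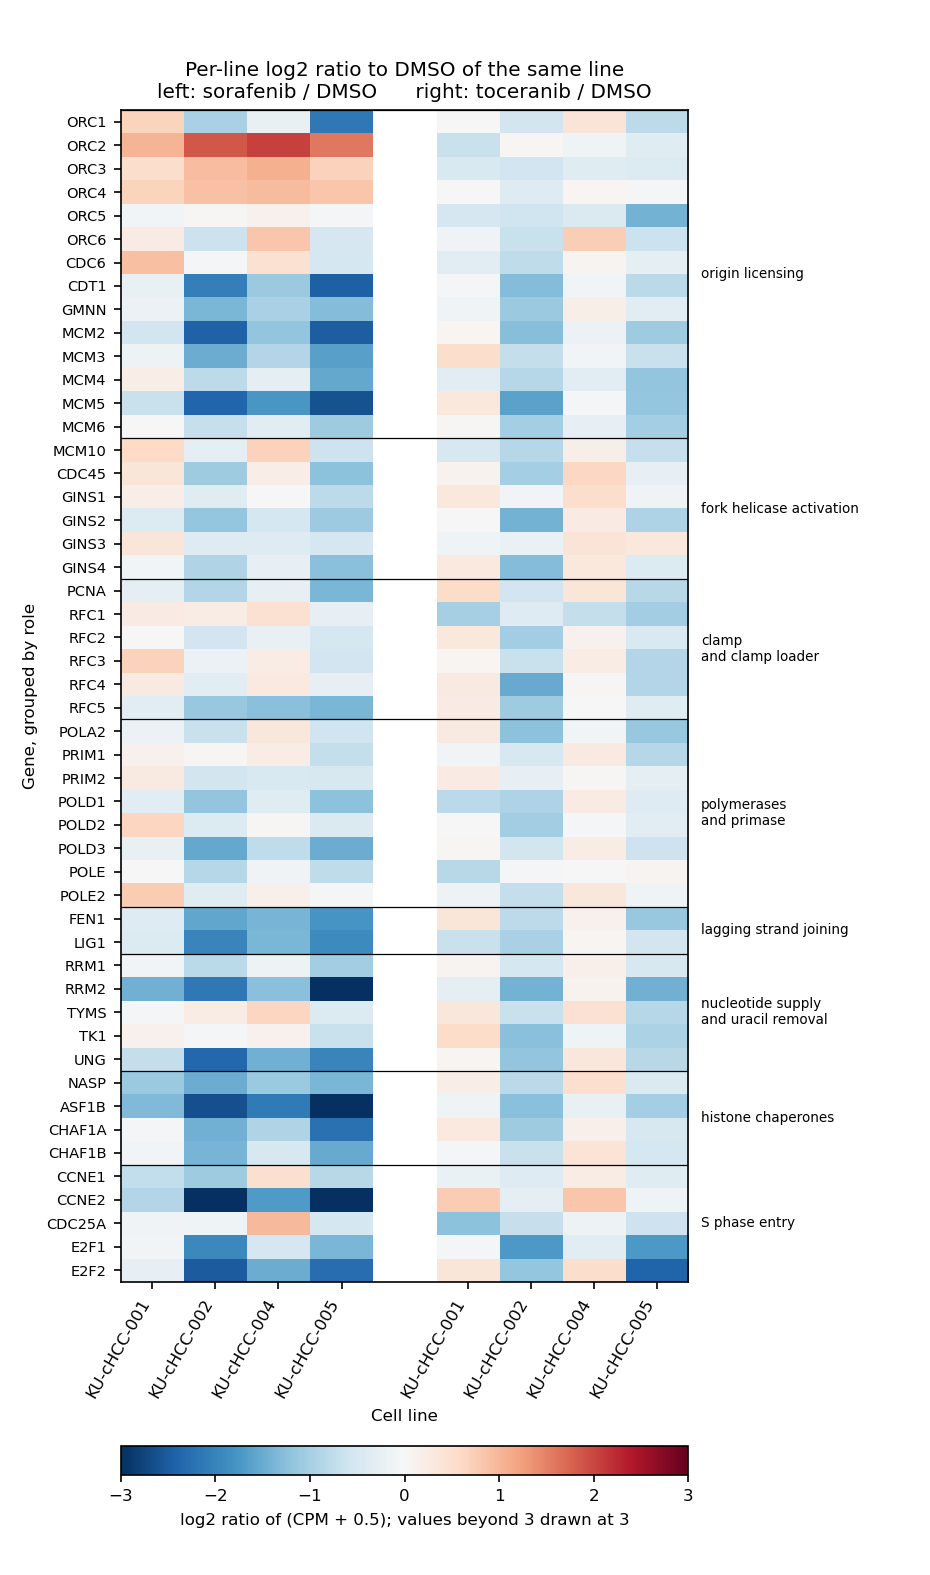
Colour gives the log2 ratio of CPM + 0.5 to DMSO of the same line for 50 genes grouped by role, with sorafenib in the 4 left columns and toceranib in the 4 right columns. ORC2, ORC3 and ORC4 are red in all 4 sorafenib columns, and the sorafenib medians over the 50 genes run from -0.08 in KU-cHCC-001 to -1.08 in KU-cHCC-005.

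Among the 14 licensing genes, 5 fell and 3 rose (57.1% called against 19.6% of all genes tested). Both directions occurred within the same step. ORC2, an origin recognition subunit, stood at 94.4, 37.8, 51.1 and 54.1 CPM with DMSO and 192, 140.1, 213 and 163 CPM with sorafenib, a log2 change of 1.62 ± 0.18 (SE, edgeR adjusted p = 5.16e-04). The sorafenib libraries all lay above the DMSO libraries, without overlap. ORC4, another subunit, went from 51.9, 57.1, 49.3 and 52.8 CPM to 82.8, 105, 95.7 and 94.9 CPM (log2 change 0.83 ± 0.14 SE, edgeR adjusted p = 0.00402), also without overlap and with per-line log2 ratios of 0.67 to 0.95. ORC3 went from 36.3, 18.3, 19.5 and 18.97 CPM to 52.3, 35.1, 41.3 and 30.7 CPM (log2 change 0.80 ± 0.16 SE, edgeR adjusted p = 0.00827); it was higher in 4 of 4 lines, though the DMSO library of KU-cHCC-001 lay above 2 sorafenib libraries. The other subunits did not pass the test. ORC5 had a log2 fold change of -0.01 ± 0.20 (SE) and per-line ratios of -0.09 to 0.13, ORC6 had -0.07 ± 0.24, and ORC1, which in human cells rises and falls with the cycle, had -0.65 ± 0.37 with per-line ratios of 0.66, -0.97, -0.22 and -2.13. ORC1 was thus higher in KU-cHCC-001 and lower in the other lines.

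CDT1, which brings the MCM helicase to origins, went from 106, 82.1, 27.9 and 44.4 CPM to 91.3, 19.4, 12.6 and 7.76 CPM, a log2 change of -1.49 ± 0.32 (SE, edgeR adjusted p = 0.0102). Its inhibitor GMNN went from 58.2, 57.9, 38.5 and 67.2 CPM to 51.1, 22.1, 19.5 and 26.8 CPM (log2 change -0.98 ± 0.24 SE, edgeR adjusted p = 0.0170). Each was lower in 4 of 4 lines and least so in KU-cHCC-001, and the groups overlapped. The other loader, CDC6, did not pass, with 0.21 ± 0.23 and per-line ratios of 0.89, -0.05, 0.47 and -0.53. Of the helicase, MCM5 went from 213, 314, 111 and 179.8 CPM to 134, 60.04, 32.5 and 29.2 CPM (log2 change -1.93 ± 0.31 SE, edgeR adjusted p = 0.00323). MCM2 went from 219, 186, 69.97 and 108 CPM to 148, 34.4, 30.7 and 19.05 CPM (log2 change -1.71 ± 0.29 SE, edgeR adjusted p = 0.00374). MCM3 went from 251, 165, 103 and 133 CPM to 226, 58.4, 55.9 and 42.7 CPM (log2 change -1.08 ± 0.23 SE, edgeR adjusted p = 0.00887). With sorafenib KU-cHCC-001 had the highest level of the 4 lines for all 3, and the per-line ratios were largest in size in KU-cHCC-005, at -2.60, -2.48 and -1.62. MCM4 (log2 change -0.62 ± 0.23 SE, edgeR adjusted p = 0.0816) and MCM6 (log2 change -0.56 ± 0.20 SE, edgeR adjusted p = 0.0691) did not pass. In KU-cHCC-001 they were level with or above DMSO, at ratios of 0.19 and 0.0027, and without that line both passed (-0.89, edgeR adjusted p = 0.0143, and -0.72, 0.0219). Subunits of the same helicase thus had log2 fold changes from -1.93 to -0.56; the differences between subunits were not tested.

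Of the 6 genes that activate the helicase, 1 fell (16.7% called against 19.6% of all genes tested). GINS2, a subunit of the 4-part GINS complex, went from 14.8, 19.9, 6.84 and 16.6 CPM to 11.1, 8.67, 4.56 and 7.51 CPM (log2 change -0.89 ± 0.28 SE, edgeR adjusted p = 0.0466), lower in 4 of 4 lines. It lost its call in 7 of 12 alternative analyses. The other subunits had log2 fold changes of -0.25 ± 0.18 (GINS1), -0.23 ± 0.23 (GINS3) and -0.66 ± 0.26 (GINS4, edgeR adjusted p = 0.0934). CDC45, which sits with GINS on the helicase, had -0.47 ± 0.30, and MCM10, which helps to activate it, had 0.08 ± 0.23; their ratios were 0.37, -1.08, 0.19 and -1.24 and 0.59, -0.28, 0.69 and -0.63, on both sides of DMSO.

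Of the clamp and its loader, 2 of 6 genes fell (33.3% called against 19.6% of all genes tested). PCNA, the sliding clamp that holds polymerases on DNA, went from 202, 265, 115 and 237 CPM to 166, 145, 96.3 and 91.98 CPM (log2 change -0.74 ± 0.22 SE, edgeR adjusted p = 0.0395), with the groups overlapping. RFC5, a small subunit of the clamp loader, went from 72.3, 64.7, 38.9 and 50.9 CPM to 58.3, 29.05, 16.1 and 19.4 CPM (log2 change -1.05 ± 0.23 SE, edgeR adjusted p = 0.0110). The other loader subunits did not pass, at 0.16 ± 0.17 for the large subunit RFC1, -0.37 ± 0.20 for RFC2, 0.01 ± 0.22 for RFC3 and -0.05 ± 0.24 for RFC4. RFC5 was lower in 4 of 4 lines, while RFC1, RFC3 and RFC4 each lay above DMSO in at least 2.

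Of the 8 polymerase and primase genes, 2 fell (25% called against 19.6% of all genes tested). Both encode subunits of polymerase delta, which makes most of the lagging strand. POLD3, an accessory subunit, went from 36.1, 71.1, 23.1 and 34.9 CPM to 30.8, 24.2, 13.4 and 12.2 CPM (log2 change -1.04 ± 0.23 SE, edgeR adjusted p = 0.0113). POLD1, the catalytic subunit, went from 83.5, 73.2, 31.6 and 43.02 CPM to 66.1, 31.7, 24.5 and 17.96 CPM (log2 change -0.80 ± 0.24 SE, edgeR adjusted p = 0.0366). Both were lower in 4 of 4 lines, whereas the accessory subunit POLD2 had -0.06 ± 0.21 and per-line ratios of 0.65, -0.41, 0.02 and -0.43. The other genes did not pass. The leading strand polymerase had -0.41 ± 0.25 (POLE) and 0.12 ± 0.22 (POLE2), the primase -0.11 ± 0.20 (PRIM1) and -0.33 ± 0.17 (PRIM2), and the polymerase alpha subunit POLA2 -0.32 ± 0.24. The genes that finish the lagging strand both fell, against 10.1% of all genes tested called lower. FEN1, the nuclease that trims flaps between Okazaki fragments, went from 91.4, 125.2, 42.6 and 108 CPM to 69.2, 42.3, 15.97 and 31.5 CPM (log2 change -1.33 ± 0.25 SE, edgeR adjusted p = 0.00626). LIG1, the ligase that seals them, went from 123, 135, 54.6 and 74.3 CPM to 91.8, 33.5, 20.6 and 19.5 CPM (log2 change -1.42 ± 0.29 SE, edgeR adjusted p = 0.00783). Each was lower in 4 of 4 lines, and the sorafenib library of KU-cHCC-001 lay inside the range of the DMSO libraries.

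Nucleotide supply and uracil removal were split, and 3 of 5 genes fell (60% called against 19.6% of all genes tested). RRM2, the small subunit that limits ribonucleotide reductase in cycling cells, went from 577, 351, 178 and 464 CPM to 213, 78.6, 74.03 and 56.01 CPM (log2 change -2.03 ± 0.29 SE, edgeR adjusted p = 0.00183), lower in 4 of 4 lines. RRM1, the large subunit, went from 224, 219.5, 104 and 139 CPM to 210.4, 124, 92.9 and 66.6 CPM (log2 change -0.55 ± 0.18 SE, edgeR adjusted p = 0.0498) and lost its call in 9 of 12 alternative analyses. TYMS, which makes thymidylate, had 0.08 ± 0.24 with per-line ratios of -0.05, 0.23, 0.65 and -0.40, and TK1, the salvage kinase, had -0.15 ± 0.26 with 0.14, -0.07, 0.14 and -0.67; neither passed. UNG, which removes uracil from DNA, went from 40.3, 65.7, 25.8 and 45.9 CPM to 24.3, 12.5, 9.13 and 11.3 CPM (log2 change -1.70 ± 0.28 SE, edgeR adjusted p = 0.00343), without overlap of the groups. DUT, the enzyme that destroys dUTP and so keeps uracil out of DNA, is on the wider list of replication genes and went from 91.9, 209, 95.2 and 185 CPM to 43.2, 44.1, 23.4 and 27.8 CPM (log2 change -2.02 ± 0.26 SE, edgeR adjusted p = 0.00123).

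All 4 histone chaperones fell, against 10.1% of all genes tested called lower. In none of the 4 lines was any of the chaperones above DMSO. ASF1B, which hands histones H3 and H4 to assembly factors, went from 79.5, 83.9, 52.6 and 73.9 CPM to 31.7, 13.1, 11.7 and 5.38 CPM, a log2 change of -2.47 ± 0.33 (SE, edgeR adjusted p = 0.00129) and the lowest of the 50 genes. NASP, a chaperone of the histone reserve, went from 209, 217, 114 and 159 CPM to 96.6, 77.2, 52.7 and 61.2 CPM (log2 change -1.30 ± 0.20 SE, edgeR adjusted p = 0.00236). ASF1B and NASP did not overlap between the groups, and the ratios of NASP were alike in the lines, at -1.11, -1.49, -1.10 and -1.37 (SD 0.19), against an SD of 0.98 for ASF1B. CHAF1A, the large subunit of chromatin assembly factor 1, went from 101, 135, 51.1 and 67.8 CPM to 98.1, 49.8, 26.96 and 13.97 CPM (log2 change -1.17 ± 0.30 SE, edgeR adjusted p = 0.0225). CHAF1B, the middle subunit, went from 58.6, 43.03, 21.04 and 31.7 CPM to 55.2, 16.1, 14.9 and 10.9 CPM (log2 change -0.90 ± 0.25 SE, edgeR adjusted p = 0.0285). For these subunits the ratios in KU-cHCC-001 were -0.04 and -0.08, and those in KU-cHCC-005 -2.24 and -1.50.

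Of the 5 genes that drive S phase entry, 3 fell (60% called against 19.6% of all genes tested). CCNE2, cyclin E2, an activator of CDK2, went from 30.8, 23.1, 7.52 and 19.6 CPM to 16.6, 2.29, 1.96 and 1.66 CPM (log2 change -2.38 ± 0.40 SE, edgeR adjusted p = 0.00351). The sorafenib levels lay below every DMSO library in each line but KU-cHCC-001, which overlapped. CCNE1, cyclin E1, did not pass (log2 change -0.58 ± 0.26 SE, edgeR adjusted p = 0.137), with ratios of -0.74, -1.07, 0.47 and -0.84. E2F1, an activating transcription factor of S phase genes, went from 66.7, 91.3, 24.04 and 51.9 CPM to 62.95, 23.5, 16.8 and 19.8 CPM (log2 change -1.06 ± 0.30 SE, edgeR adjusted p = 0.0299), and its ratio in KU-cHCC-001 was -0.08. E2F2, of the same family, went from 14.9, 9.34, 0.905 and 7.02 CPM to 12.5, 1.25, 0 and 1.04 CPM (log2 change -2.15 ± 0.69 SE, edgeR adjusted p = 0.0488). It rested on few reads, with 16 counts in the DMSO library of KU-cHCC-004 and 0 in its sorafenib library, and lost its call in 6 of 12 alternatives. CDC25A, the phosphatase that activates CDK2, had 0.04 ± 0.29 and a ratio above DMSO in KU-cHCC-004 (0.97).

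**Figure D2:**
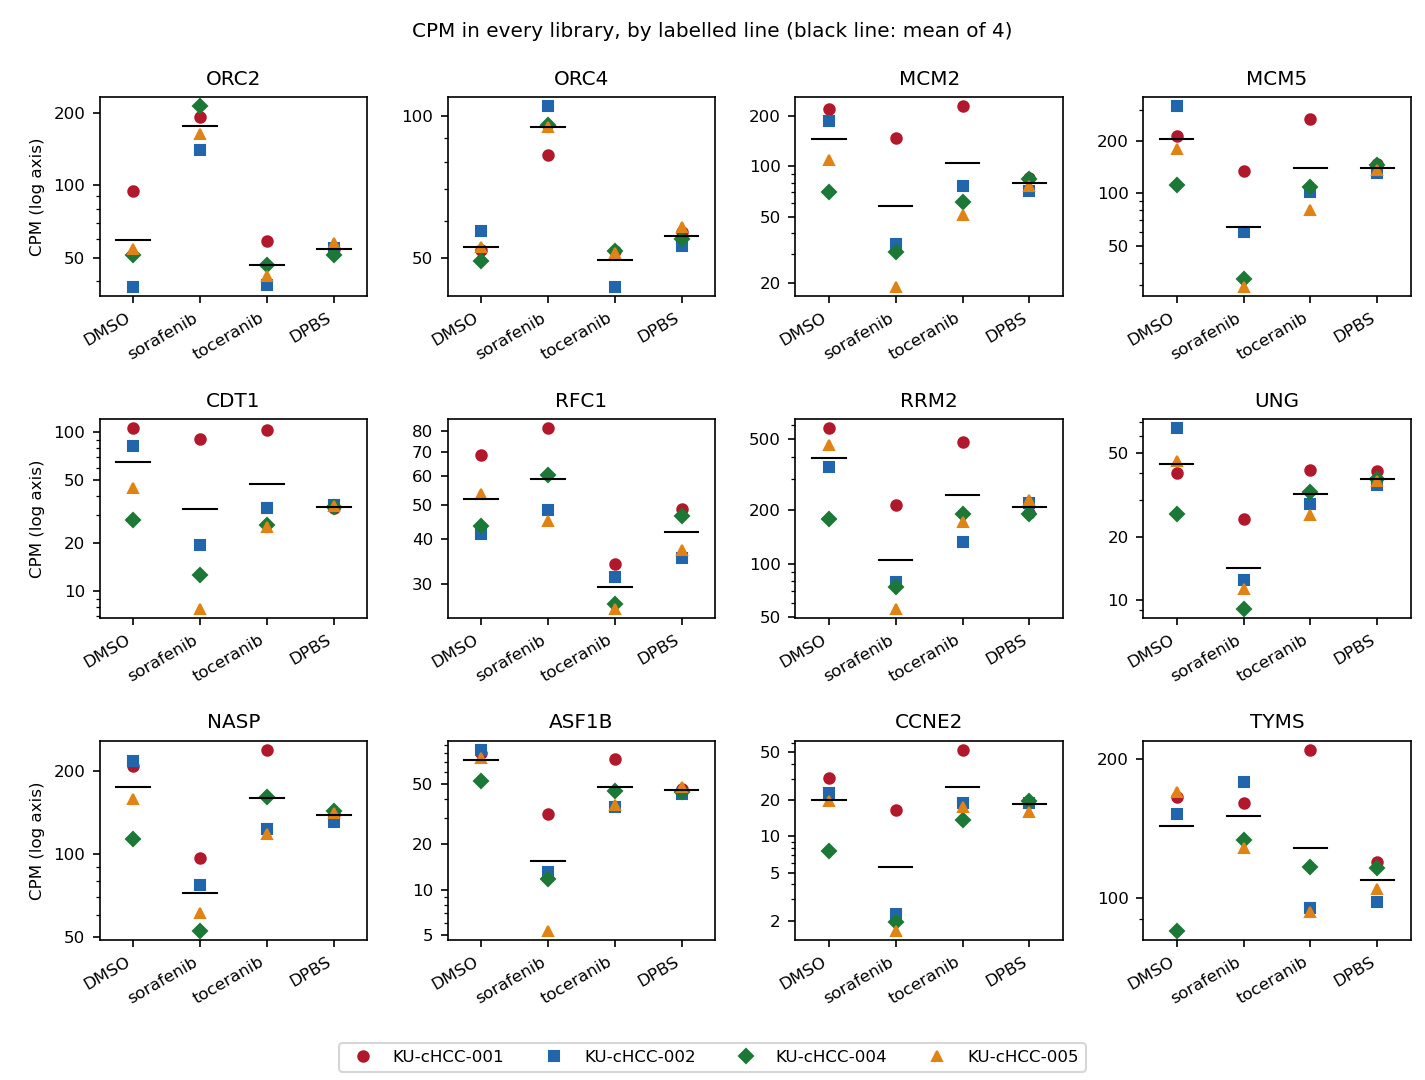
CPM on a log axis in each of the 16 libraries for 12 genes, by treatment, with the labelled line as colour and symbol and the mean of 4 libraries as a black line. ORC2 and ORC4 lie higher with sorafenib than in any DMSO library, NASP, UNG and ASF1B lie lower, and RFC1 is lower with toceranib than in any DMSO library.

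Without overlap between the 4 sorafenib and 4 DMSO libraries were 3 genes that were lower (UNG, NASP and ASF1B) and 2 that were higher (ORC2 and ORC4), shares close to the 5.44% and 6.57% of all genes tested. Line differences were large beside the change: in DMSO KU-cHCC-004 was the lowest of the 4 lines for 45 of 50 genes, against 20.5% of all genes tested, and with sorafenib KU-cHCC-001 was the highest for 43 of 50, against 34.9%. These orders within a treatment are given as a description and were not tested. ORC2, UNG, NASP and ASF1B passed in all 12 alternative analyses of this comparison. MCM2, MCM5, RRM2 and CCNE2 lost the call in the 1 alternative that drops the cell line from the model. The other 17 called genes lost it in at least 1 alternative, most when a line other than KU-cHCC-001 was left out.

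Other genes of replication and of the cell cycle were read beside the set. Of 42 tested genes on a wider replication list, 12 fell and 0 rose with sorafenib (28.6% called against 19.6% of all genes tested, median -0.42). After DUT they were UHRF1 (-1.64), which guides DNA methylation after replication, CHTF18 (-1.35), of an alternative clamp loader, CLSPN (-1.25), TIMELESS (-0.72) and RPA2 (-0.80) at the fork, and CDK2 (-1.04) and its partner cyclin A2 (CCNA2, -1.02). DNA2 (-1.02), a nuclease of the lagging strand, MCM9 (-0.98), SLBP (-0.84), which binds histone mRNA, and HAT1 (-0.61), which acetylates new histone H4, completed the 12. Of 22 regulators of E2F and RB, 4 fell and 2 rose (27.3% called against 19.6% of all genes tested, where 10.1% were lower and 9.59% higher). CDKN1A, the CDK inhibitor p21, went from 42.8, 125.0, 247 and 249 CPM to 128, 715, 893 and 875 CPM (log2 change 1.96 ± 0.27 SE, edgeR adjusted p = 0.00168). RB1, the retinoblastoma protein that restrains E2F, went from 49.1, 22.2, 29.4 and 28.2 CPM to 87.8, 60.6, 70.6 and 51.9 CPM (log2 change 1.08 ± 0.18 SE, edgeR adjusted p = 0.00323). Those that fell were the CDK inhibitor CDKN2C (-2.16), the repressor E2F8 (-1.94), CDC25C (-1.18) and FBXO5 (-1.16). Of 20 mitotic genes, 15 fell and 0 rose (75% called against 19.6% of all genes tested, median -1.02 against -0.02). Their per-line medians were -0.59, -1.03, -0.34 and -2.28. MKI67 (-2.16), KIF20A (-2.11) and PLK1 (-1.83) had the lowest fold changes. The others that fell were CCNB1 (-1.72), CENPF (-1.68), TTK (-1.45), NDC80 (-1.18), KIF11 (-1.07), TPX2 (-1.04), CCNB2 (-1.04), BUB1B (-1.01), AURKA (-1.005), BUB1 (-0.999), CDK1 (-0.79) and NUSAP1 (-0.47).

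**Figure D3:**
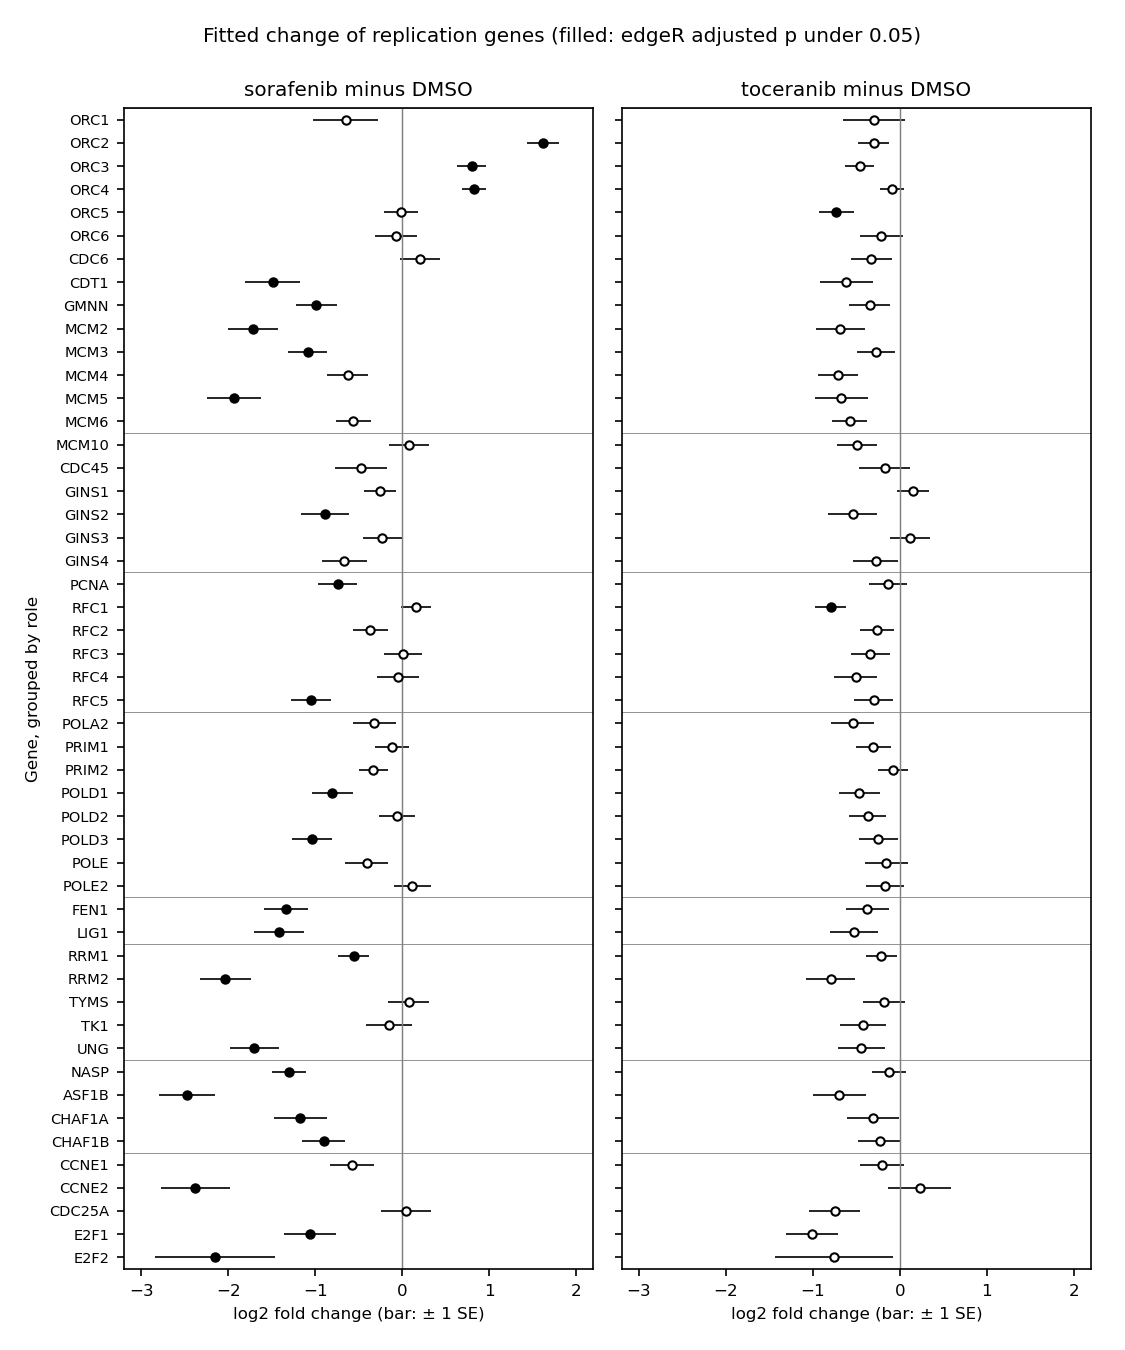
Fitted log2 fold change of each of the 50 genes, with bars of 1 SE, for sorafenib minus DMSO on the left and toceranib minus DMSO on the right; filled points have an edgeR adjusted p under 0.05. With sorafenib 25 points are filled, from -2.47 (ASF1B) to 1.62 (ORC2), and with toceranib 2, ORC5 and RFC1.

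Toceranib against DMSO of the same line asked the same of the second drug. Toceranib was given in DPBS, so drug and vehicle cannot be told apart in this comparison. With toceranib 2 of 50 genes fell, ORC5 and RFC1, and 0 rose. The share called was 4% against 7.46% of all genes tested (3.15% lower, 4.31% higher), so the set was called no more often than the background. At an unadjusted p under 0.05 there were 12 of 50, against 4120 of all 14938 genes, a smaller share in the set when both directions are counted. All 12 were lower. Of all genes, 1895 were lower and 2225 higher, so lower genes took a larger share in the set. DESeq2 called 4 of 50 lower and 0 higher, and 2335 of all 14938 genes. RFC1, the large subunit of the clamp loader, went from 68.6, 41.5, 43.7 and 53.6 CPM to 34.2, 31.5, 26.5 and 25.7 CPM (log2 change -0.80 ± 0.18 SE, edgeR adjusted p = 0.0285), lower in 4 of 4 lines and without overlap. With sorafenib it stood at 81.6, 48.2, 60.6 and 45.03 CPM and with DPBS at 48.7, 35.5, 46.5 and 37.4 CPM. ORC5, an origin recognition subunit, went from 27.8, 29.2, 22.2 and 37.05 CPM to 19.6, 19.3, 16.4 and 13.6 CPM (log2 change -0.73 ± 0.20 SE, edgeR adjusted p = 0.0487), again without overlap. Its levels were 26.1, 29.99, 24.4 and 35.5 CPM with sorafenib and 21.3, 13.1, 20.6 and 16.6 CPM with DPBS. Genes lower without overlap were 2 of 50, against 3.52% of all genes tested. Without the toceranib library of KU-cHCC-005, which held stromal transcripts, RFC1 had -0.78 (edgeR adjusted p = 0.101) and ORC5 -0.53 (adjusted p = 0.147), so that 0 genes of the set were called. The fold change of RFC1 was thus nearly the same without that library. Calls over all genes were also few in this fit, at 66 of 15617, against 1115 in the main fit. Over all 12 alternatives the adjusted p of RFC1 reached at most 0.212 and that of ORC5 0.293.

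The lines fell into unlike pairs. The median log2 ratio of toceranib to DMSO over the 50 genes was -0.0017, -0.79, 0.13 and -0.63. The fitted median was -0.33 against -0.01 over all genes tested. In DPBS minus DMSO the fitted median was -0.25 against 0.05, and in toceranib minus DPBS -0.08 against -0.03. The last 2 rest on the DPBS libraries, whose line labels are in doubt. In KU-cHCC-002 49 of 50 genes and in KU-cHCC-005 48 of 50 lay below DMSO, 20 and 12 of them by more than 1 log2 unit (against 8.07% and 6.32% of all genes tested). In KU-cHCC-001 25 lay below and 25 above, and in KU-cHCC-004 18 below and 32 above. The DMSO library of KU-cHCC-004 was, as given above, the lowest of the DMSO libraries for 45 of 50 genes. Without KU-cHCC-001 the count of genes that fell was 9, with MCM2, MCM4, MCM5, MCM6, POLA2, TK1 and E2F1 added. Without any 1 of the other lines it was 0. Of all genes tested, 3044 were called without KU-cHCC-001, 1246 of them lower. Without KU-cHCC-002, KU-cHCC-004 or KU-cHCC-005, 7, 4 and 1 of all genes were called, so these fits cannot tell the set from other genes.

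**Figure D4:**
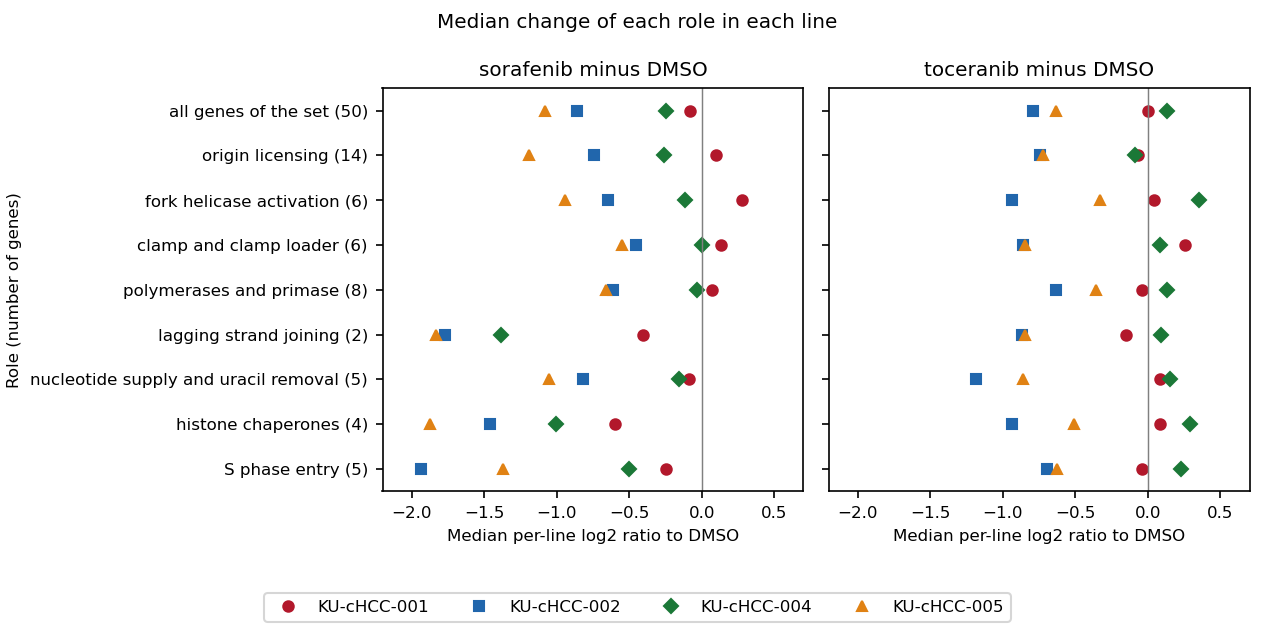
Median per-line log2 ratio to DMSO for all 50 genes and for each role, with 1 symbol per line, for sorafenib on the left and toceranib on the right. KU-cHCC-002 and KU-cHCC-005 lie lowest for the 50 genes with each drug, at -0.86 and -1.08 with sorafenib and at -0.79 and -0.63 with toceranib. The 50 genes, histone chaperones, lagging strand enzymes, nucleotide supply and uracil removal, and S phase entry lie below 0 in all 4 lines with sorafenib.

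The genes that moved with sorafenib had the following levels with toceranib, to be read against the DMSO values above; none of these passed the test against DMSO. Among the licensing genes, ORC2 stood at 58.8, 38.6, 46.7 and 42.1 CPM, ORC3 at 26.5, 12.04, 15.1 and 14.1 CPM and ORC4 at 51.6, 43.5, 51.7 and 51.2 CPM. These subunits, higher in every line with sorafenib, had fitted toceranib changes of -0.30 ± 0.18, -0.46 ± 0.16 and -0.09 ± 0.14. CDT1 was at 103, 33.2, 26.2 and 25.3 CPM and GMNN at 54.2, 26.3, 43.6 and 53.5 CPM. MCM2 was at 229, 76.7, 61.5 and 51.4 CPM, MCM3 at 365, 99.4, 97.2 and 83.2 CPM and MCM5 at 266, 102, 108 and 80.02 CPM. MCM2, MCM3 and MCM5 were above DMSO in KU-cHCC-001 and below it in KU-cHCC-002 and KU-cHCC-005. At the fork, GINS2 lay at 14.7, 7.15, 8.23 and 8.48 CPM, PCNA at 298, 179, 147 and 133 CPM and RFC5 at 85.2, 30.6, 38.8 and 39.3 CPM. POLD1 lay at 47.2, 38.1, 37.4 and 32.97 CPM, POLD3 at 37.2, 48.2, 27.2 and 22.5 CPM, FEN1 at 118, 73.02, 46.7 and 48.7 CPM and LIG1 at 77.4, 68.7, 56.8 and 50.4 CPM. PCNA, the clamp, had a fitted change of -0.14 ± 0.22 and LIG1 one of -0.53 ± 0.28.

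For nucleotide supply, RRM1 had 237, 152, 115 and 98.7 CPM, RRM2 479.8, 132, 191 and 171 CPM and UNG 41.7, 28.7, 32.5 and 25.4 CPM with toceranib. RRM2 was lower than in DMSO in 3 of 4 lines and did not pass (log2 change -0.80 ± 0.28 SE, edgeR adjusted p = 0.0958). The histone chaperones had 239.5, 124, 161 and 118 CPM (NASP), 72.9, 35.1, 45.2 and 36.4 CPM (ASF1B), 123, 64.6, 57.1 and 48.4 CPM (CHAF1A) and 57.3, 27.0, 28.3 and 21.7 CPM (CHAF1B). None of the chaperones passed, with fitted changes from -0.70 to -0.12. CCNE2 had 52.3, 19.01, 13.7 and 17.7 CPM (log2 change 0.23 ± 0.36 SE, edgeR adjusted p = 0.721), above DMSO in KU-cHCC-001 and KU-cHCC-004. E2F1 had 64.8, 27.2, 19.1 and 15.4 CPM (log2 change -1.02 ± 0.30 SE, edgeR adjusted p = 0.0610) and E2F2 19.3, 3.87, 1.53 and 0.932 CPM (log2 change -0.76 ± 0.68 SE, edgeR adjusted p = 0.499). E2F1 was lower in 4 of 4 lines, at -1.73 and -1.72 in KU-cHCC-002 and in KU-cHCC-005, and at -0.04 and -0.33 in the other lines. On the other lists, 1 of 42 wider replication genes fell with toceranib, the MCM-binding protein gene MCMBP (log2 change -1.15 ± 0.20 SE, edgeR adjusted p = 0.0172), 1 of 22 E2F and RB regulators, E2F4 (-0.64), and 2 of 20 mitotic genes, NUSAP1 (-0.58) and BIRC5 (-0.95). None of these lists had a gene that rose. The shares called were 2.38%, 4.55% and 10%, against 7.46% of all genes tested, of which 3.15% were lower.

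The drugs were also set against each other within the lines. Vehicles and molar doses differ, so this is a comparison of the treatments as given. Between sorafenib and toceranib 19 of 50 genes differed, 14 lower and 5 higher with sorafenib. The share called was 38% against 38.4% of all genes tested (20.1% lower, 18.3% higher), near the background. CCNE2 had the lowest difference, at -2.60 ± 0.39 (SE, edgeR adjusted p = 7.68e-04), and was lower with sorafenib in 4 of 4 lines, with per-line differences of -1.62, -2.81, -2.52 and -3.08. ASF1B (log2 change -1.77 ± 0.32 SE, edgeR adjusted p = 0.00182), UNG (log2 change -1.26 ± 0.28 SE, edgeR adjusted p = 0.00525) and NASP (log2 change -1.18 ± 0.20 SE, edgeR adjusted p = 0.00131) were lower without overlap. The other genes lower with sorafenib were MCM5 (-1.26), RRM2 (-1.23), MCM2 (-1.03), FEN1 (-0.96), LIG1 (-0.89), CDT1 (-0.87), CHAF1A (-0.86), MCM3 (-0.81), POLD3 (-0.79) and RFC5 (-0.75). ORC2 had the highest difference (log2 change 1.92 ± 0.18 SE, edgeR adjusted p = 8.72e-05), followed by ORC3 (log2 change 1.26 ± 0.17 SE, edgeR adjusted p = 4.03e-04), RFC1 (log2 change 0.95 ± 0.18 SE, edgeR adjusted p = 0.00219), ORC4 (log2 change 0.92 ± 0.14 SE, edgeR adjusted p = 9.12e-04) and ORC5 (log2 change 0.72 ± 0.20 SE, edgeR adjusted p = 0.0157). These 5 were higher with sorafenib in 4 of 4 lines and without overlap. Of all genes tested, 10.8% were higher and 9.81% lower without overlap, against 5 and 3 of the 50. For MCM6 (0.02 ± 0.20, SE), MCM4 (0.09 ± 0.23) and E2F1 (-0.05 ± 0.29) the difference did not pass the test. The counts lower with sorafenib were 19 without KU-cHCC-001, 8 without KU-cHCC-002, 5 without KU-cHCC-004 and 7 without KU-cHCC-005. With all 16 libraries 6 were lower, and without the cell line in the model 3. Over all genes 2998 were lower in the main fit, and 3620, 1935, 1623 and 1627 without each line in turn. With all 16 libraries 2424 of all genes were lower, and without the cell line in the model 1047. Of the wider replication list 7 of 42 were lower and 5 higher with sorafenib, 28.6% against the 38.4% of all genes tested, with DUT (-2.09), CHTF18 (-1.33) and RECQL4 (-1.19), a helicase of replication initiation, lowest. UHRF1 (-1.04), MCM9 (-0.92), CDK2 (-0.87) and SLBP (-0.63) were the other lower genes, and the 5 higher genes are not named here. Of 22 E2F and RB regulators, 4 were lower and 5 higher with sorafenib (40.9% called). Of 20 mitotic genes, 7 were lower and 0 higher (35% called). The share over all genes tested is the 38.4% given above.

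Against DPBS, the labelled vehicle of toceranib, no gene of the set passed. edgeR called 0 of 50 genes and 0 of all 15515 genes tested (0%) in toceranib minus DPBS. At an unadjusted p under 0.05 there were 1 of 50 and 1875 of 15515, and DESeq2 called 0 of 50 and 267 in all. The 1 gene was RFC1 (log2 change -0.51 ± 0.16 SE, edgeR adjusted p = 0.284). Both comparisons with DPBS used the labelled lines, which the DPBS libraries do not all match, and counted close pairs as separate libraries. The lack of calls therefore does not show that toceranib and its vehicle are alike for these genes. The fitted median over the 50 genes was -0.08 in toceranib minus DPBS, against -0.03 over all genes tested. In DPBS minus DMSO it was -0.25 against 0.05, and 41 of 50 fold changes were negative. These medians carry the same limit of the labels. DPBS minus DMSO gave 0 of 50 genes by edgeR, against 4.63% of all genes tested (1.72% lower, 2.91% higher), with 6 of 50 at an unadjusted p under 0.05 against 3874 of all 15515. DESeq2 called ORC5 (-0.68) and E2F1 (-1.04) lower in DPBS. The lowest p of the set in that comparison was that of ORC5 (log2 change -0.69 ± 0.22 SE, edgeR adjusted p = 0.0841), which also fell with toceranib against DMSO; the comparisons share the DMSO libraries. Within the DPBS group levels varied little beside the DMSO group. MCM2 lay at 71.2 to 85.1 CPM with DPBS and 69.97 to 219 CPM with DMSO, RRM2 at 189 to 228 and 178 to 577 CPM, and ASF1B at 43.3 to 47.6 and 52.6 to 83.9 CPM. The DPBS libraries form close pairs and do not match 4 different lines, so their narrow range is not a spread over 4 lines. For the other genes named above, the DPBS libraries held CDT1 at 33.4 to 34.9 CPM, MCM5 at 131 to 147 CPM, UNG at 35.3 to 41.01 CPM, NASP at 131 to 143 CPM, CCNE2 at 15.9 to 19.7 CPM, E2F1 at 21.7 to 30.5 CPM and ORC2 at 51.2 to 57.3 CPM. Licensing and fork genes in DPBS were GMNN at 39.2 to 57.7 CPM, MCM3 at 109 to 122 CPM, ORC3 at 18.1 to 21.3 CPM, ORC4 at 52.9 to 58.2 CPM, GINS2 at 9.33 to 11.9 CPM, PCNA at 154 to 229 CPM and RFC5 at 33.5 to 46.6 CPM. Polymerase delta, the lagging strand enzymes and the remaining genes were POLD1 at 31.02 to 46.2 CPM, POLD3 at 25.8 to 63.5 CPM, FEN1 at 57.8 to 89.96 CPM, LIG1 at 59.3 to 62.7 CPM, RRM1 at 105 to 159.8 CPM, CHAF1A at 59.3 to 64.1 CPM, CHAF1B at 29.4 to 32.7 CPM and E2F2 at 3.0 to 3.33 CPM. POLD3 shows the pairing, with 63.5, 25.8, 58.5 and 27.7 CPM in the DPBS libraries.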

How the data were processed

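Each library came as a table of unnormalized counts, deposited by the authors as whole reads per symbol. Per the submitters' processing notes TopHat was used. Not given in the sources used here are its version, the counting tool and strand setting, the genome build and the gene models. No coordinates are therefore printed, and genes that overlap, lie antisense or have close copies carry uncertain counts. RNA was total RNA in strand-keeping NEBNext Ultra II Directional libraries, per the labels' protocols. Each table held 39954 entries; entries of 1 symbol were summed to 39543 symbols. All 50 symbols were found in RefSeq's gene list for UU_Cfam_GSD_1.0, which served for names alone.

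Tests were run with edgeR 4.0.16 (R 4.3.3). After filterByExpr (minimum count 10), libraries were scaled by TMM and fitted with robust quasi-likelihood on treatment and cell line. The 12 DMSO, sorafenib and toceranib libraries gave each drug against DMSO and the drugs against each other (14938 genes, 6 residual degrees of freedom, common dispersion 0.0807). All 16 libraries gave the comparisons with DPBS (15515 genes, 9 residual degrees of freedom, common dispersion 0.158). Adjusted p-values are Benjamini-Hochberg values over all genes tested, called under 0.05. SE is the log2 fold change divided by the root of the F statistic. CPM are scaled over the 16 libraries, and per-line ratios use log2(CPM + 0.5). Counts come from reads without molecular identifiers.

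Libraries of the same line pair by their labels. Deviations from the treatment means correlated at 0.75 to 0.892 between DMSO and sorafenib of a line and at 0.555 to 0.794 between DMSO and toceranib, each line matching itself best, but at -0.449 to 0.288 between DMSO and DPBS. Nothing in the labels names separate cultures, so a p-value measures the spread between these libraries.

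The members, roles and lists were chosen with earlier results of these data known. All members are accounted for; levels by library are given for those called in either drug against DMSO. Alternatives were RLE scaling, no filter, DESeq2 1.42.0, no cell line term, other library sets, a non-robust fit and leaving out each line; leaving out the toceranib library of KU-cHCC-005 was added after the data were seen. The edgeR step was tested on simulated data, with changes of the same size in every line and set only in genes with many reads. That test does not cover responses that differ between lines or genes with few reads.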

Additional observations from a re-analysis of the deposited data

Results flagged for a closer look

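For each of the 50 genes, the 4 libraries of a treatment, and the 4 per-line ratios of each drug to DMSO, were searched for a value that stands far from the others (gap to the next value, relative to the whole range, above Dixon's critical value for 4 values). Of 300 such groups 37 were flagged, and in 32 of them the distant value was that of KU-cHCC-001. The critical value flags about 1 in 20 groups of independent normal values, which CPM of 4 different lines need not be. The count of 37 is therefore not set against a chance rate. Genes of 1 library are not independent, so these flags are not separate events. A flag marks a gap that is large beside the range, and the difference in level can be small.

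With sorafenib the library of KU-cHCC-001 was far above the next for ORC1 (68.6 CPM, next 16.4), CDC6 (191 CPM, next 71.1), CDT1 (91.3 CPM, next 19.4), MCM2 (148 CPM, next 34.4), MCM3 (226 CPM, next 58.4), MCM4 (365 CPM, next 107), POLD2 (86.5 CPM, next 40.2), POLE (128 CPM, next 44.4), POLE2 (91.03 CPM, next 31.3), RRM2 (213 CPM, next 78.6), CHAF1B (55.2 CPM, next 16.1), CCNE2 (16.6 CPM, next 2.29), E2F1 (62.95 CPM, next 23.5) and E2F2 (12.5 CPM, next 1.25).

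With toceranib KU-cHCC-001 was far above the next for ORC1 (43.2 CPM, next 24.5), CDT1 (103 CPM, next 33.2), MCM2 (229 CPM, next 76.7), MCM3 (365 CPM, next 99.4), MCM4 (253 CPM, next 103), MCM5 (266 CPM, next 108), MCM6 (421 CPM, next 182), MCM10 (51.9 CPM, next 29.8), RFC5 (85.2 CPM, next 39.3), PRIM1 (97.3 CPM, next 28.3), PRIM2 (49.02 CPM, next 35.05), RRM2 (479.8 CPM, next 191), CCNE2 (52.3 CPM, next 19.01) and E2F2 (19.3 CPM, next 3.87). ORC4 was flagged as lowest in KU-cHCC-002, at 43.5 CPM, where the other libraries lay at 51.2 to 51.7 CPM.

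With DMSO KU-cHCC-001 was flagged as highest for ORC3 (36.3 CPM, next 19.5). KU-cHCC-004 was flagged as lowest for ORC6 (18.7 CPM, next 35.98) and PRIM2 (31.6 CPM, next 41.5). With DPBS GINS2 was flagged as highest in the library labelled KU-cHCC-002 (11.9 CPM, next 9.66).

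Among ratios to DMSO, KU-cHCC-001 stood apart with sorafenib for GINS3 (0.36, next -0.39) and PRIM2 (0.27, next -0.47) and with toceranib for POLE (-0.82, next -0.04). The toceranib ratio of ORC5 was far lower in KU-cHCC-005 (-1.42, next -0.59), the library that held stromal transcripts; their part in this value was not tested.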

How the results depend on the processing

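No called gene changed direction under any alternative: of 46 calls over the comparisons of sorafenib, toceranib and DMSO, 11 held in all alternatives run. Sorafenib minus DMSO gave 22 genes lower and 3 higher; without the replicate block (no cell line term) it gave 3 and 2, and with all 16 libraries 11 and 3, where the DPBS libraries enter the estimate of the spread. Leaving out a line in turn gave 8 to 26 lower and 1 to 3 higher, with 316 to 1984 of all genes called lower. A fit without a line has fewer samples. For toceranib minus DMSO the main count was 2 lower. It was 4 without a filter and with DESeq2, and 1 with all 16 libraries and with the non-robust fit. It was 0 without the replicate block, in the 8 libraries compared and without the toceranib library of KU-cHCC-005, with 0 to 9 when a line was left out. Of all genes, 1115 were called in the main fit, 0 without the replicate block and 129 in the 8 libraries compared. Without the toceranib library of KU-cHCC-005 there were 66, and 1 to 3044 when a line was left out. Sorafenib minus toceranib gave 14 lower and 5 higher, 3 lower without the replicate block, 6 lower with all 16 libraries, 8 higher without a filter, and 5 to 19 lower and 4 to 5 higher without a line. DPBS minus DMSO gave 0 lower, and 2 with DESeq2; no other call of the DPBS comparisons changed, also without the replicate block. The cause of these shifts was not tested unless stated. The median of the 50 genes ran from -0.75 to -0.32 for sorafenib minus DMSO and from -0.49 to -0.20 for toceranib minus DMSO. For sorafenib minus toceranib it ran from -0.41 to -0.15. For toceranib minus DPBS it ran from -0.29 to 0.02, and for DPBS minus DMSO from -0.47 to -0.21. RLE scaling moved the median of all genes by less than 0.1; without a filter it was -0.21 for sorafenib minus toceranib and 0.105 for toceranib minus DMSO. With 1 library per line and treatment, a difference between lines in their response to a drug cannot be tested, and genes with few reads, E2F2 first, are the least certain.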
